A study of Homo sapiens with 16 samples.

Results

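The genes described here are 38 genes of the hypoxia response and of glycolysis, followed in melanoma xenografts treated with a BET inhibitor, a BRAF inhibitor or both. They were taken by symbol, for their known roles, from the 23260 gene symbols of the deposited expression table, and all 38 were found there. They comprise the HIF factors HIF1A and EPAS1, the HIF prolyl hydroxylases EGLN1 and EGLN3, glucose transporters, the enzymes that turn glucose into lactate with their regulators, and other genes known as targets of HIF. Of the 38 genes, 36 reached the level needed for testing, 1 FPKM or more in 4 or more of the 16 tumors, while EPAS1 and EGLN3 did not.

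Hypoxia-inducible factors pair an oxygen-regulated alpha subunit, HIF1A or EPAS1, with the stable beta subunit ARNT. In oxygen the EGLN enzymes hydroxylate the alpha subunit, VHL binds it and it is degraded, so its amount is set largely at the level of protein. When oxygen is short, the pair binds DNA at a short core, ACGTG or GCGTG, and raises genes for glucose uptake, glycolysis, acid export and vessel growth. Tumors commonly run glycolysis fast and turn much of the pyruvate into lactate, and in BRAF-mutant melanoma this is known to depend partly on BRAF signaling. BET proteins bind acetylated histones at active genes and help to transcribe them.

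A375, an established human melanoma line with mutant BRAF, was injected into both flanks of NOG mice, an immunodeficient strain whose own vessels, fibroblasts and myeloid cells still enter the tumors. The J+V group received JQ1, a BET inhibitor, at 50 mg/kg daily together with Vemurafenib, a BRAF inhibitor, at 25 mg/kg in each of 2 daily doses. The J group received JQ1 alone and the V group Vemurafenib alone at the same doses, and the control group received vehicle, all by intraperitoneal injection. RNA of tumors taken on day 5 was sequenced after removal of ribosomal RNA, with 4 tumors from 2 mice in each group. All groups share the 1 cell line, and each mouse had 1 treatment, so a difference between mice and a treatment effect cannot be fully told apart with 2 mice a group.

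Levels are given as FPKM, fragments scaled by transcript length and by the mapped fragments of the tumor, as the authors deposited them. Summed over all symbols, a tumor held 970443 to 1406986 FPKM. Small nucleolar RNAs took 49.7 to 57.0% of this sum in J+V tumors and 38.02 to 49.3% in control tumors. How many reads stand behind a value is unknown. Differences are log2 fold changes of FPKM plus 0.5, tested with limma over all 13426 genes that reached the level above, and a gene was called at a Benjamini-Hochberg adjusted p below 0.05. Rescaling each tumor to a common sum (TPM) shifted the median over all genes to -0.22 in J+V against control, from -0.03, and to -0.10 in J against control, from 0.04, and all differences below are on the scale as deposited unless TPM is named. Of all genes called in J+V against control, 55.4% were lower as deposited and 85.3% on the TPM scale. With a common sum that left out small nucleolar and other short RNAs, 50.7% were lower. After upper quartile scaling 47.2% were lower, and after quantile normalization 50.7%. J, V and J+V were each set against the same 4 control tumors, so these comparisons are not independent. In bulk tumor RNA, fewer cells of a kind and less RNA per cell cannot be told apart.

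HIF1A, the oxygen-regulated subunit of HIF-1, was abundant, and its levels overlapped among the 4 groups. Its level was 99.9, 101, 112 and 112 FPKM in J+V tumors, 97.3, 100.4, 102 and 101 in J tumors, 91.1, 105, 116 and 90.7 in V tumors, and 108, 101, 109 and 87.4 in control tumors. Its log2 difference from control was 0.07 in J+V (95% interval -0.11 to 0.26), -0.01 in J (-0.19 to 0.17) and -0.01 in V (-0.20 to 0.17). The J+V value was -0.14 on the TPM scale and -0.004 without mouse 34, and passed no threshold. EPAS1, the alpha subunit of HIF-2, was measured at 0.47, 0.80, 0.71 and 0.62 FPKM in J+V tumors, 0.57, 0.72, 0.52 and 0.70 in J tumors, 0.61, 0.68, 0.97 and 0.74 in V tumors, and 0.76, 0.64, 0.42 and 0.54 in control tumors. EGLN1, the main HIF prolyl hydroxylase, averaged 18.9 ± 1.34 FPKM in J+V and 22.4 ± 2.41 in control tumors (SD, n = 4 each), a log2 difference of -0.23 that narrowly missed the threshold (adjusted p = 0.0519, limma). EGLN3, a hydroxylase that is itself a HIF target, lay between 0 and 0.43 FPKM in all tumors. HIF1A lies at chr14:62162231-62214977 and EPAS1 at chr2:46520806-46613836 (GRCh37, the assembly of hg19), and both code for proteins.

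**Figure D1:**
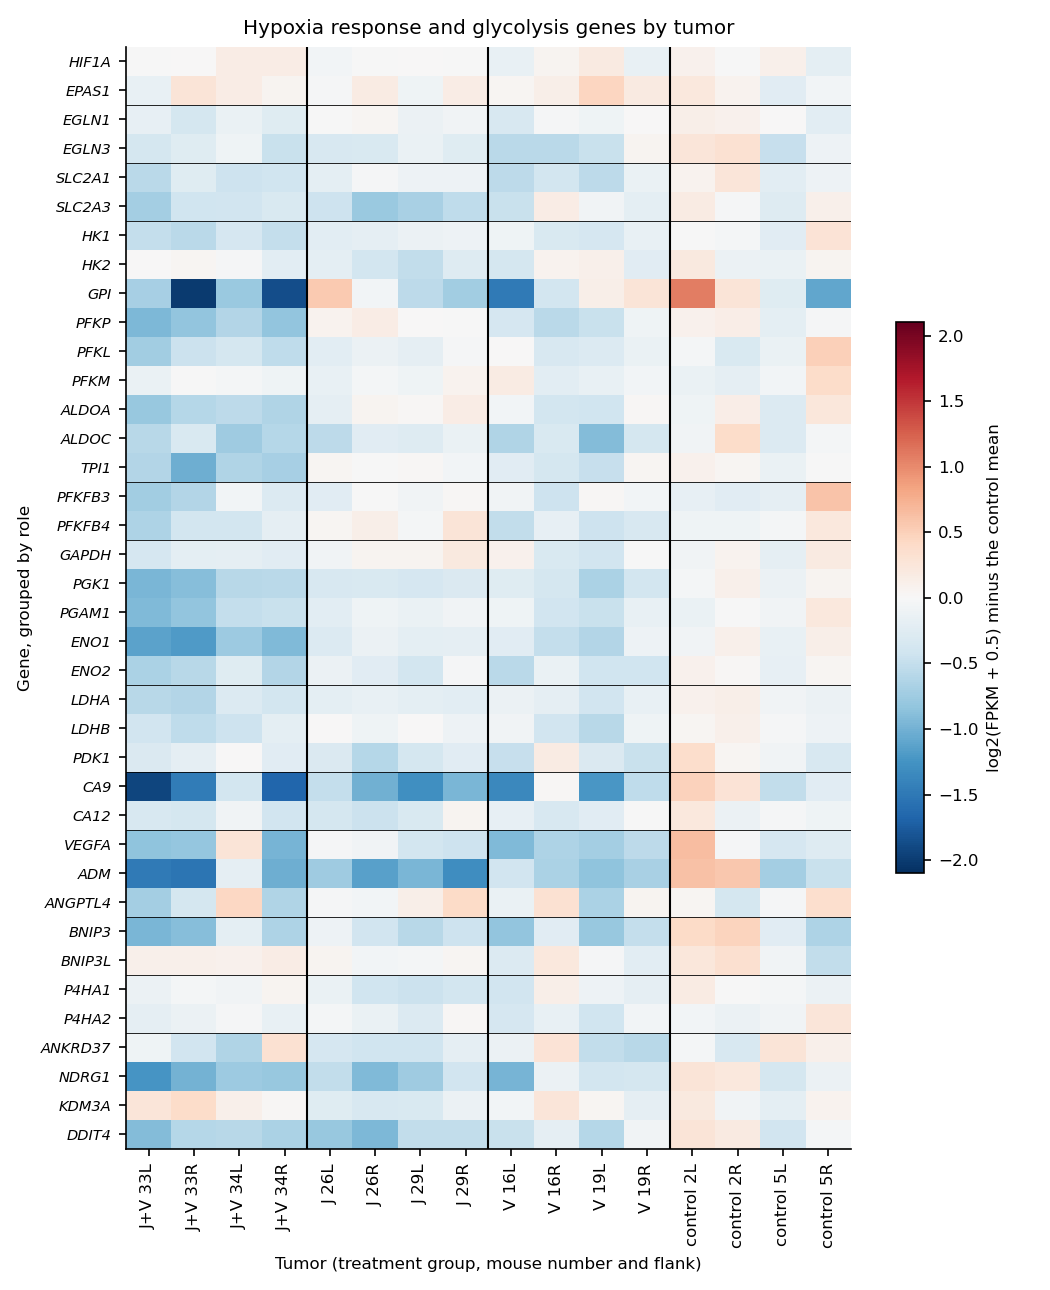
The log2(FPKM + 0.5) of each of the 38 genes minus its mean over the 4 control tumors, with genes in rows grouped by role and the 16 tumors in columns, J+V leftmost and control rightmost. Blue is below and red above the control mean. The J+V columns are blue across most glycolytic enzymes, HIF1A is pale throughout, and CA9, ADM and GPI vary most within groups.

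With JQ1 alone, several HIF targets lay below control while most glycolytic enzymes lay close to it, but no gene passed the threshold. The 8 genes with the smallest p were the glucose transporter SLC2A3, DDIT4, NDRG1, P4HA1, ADM, PGK1, HK2 and CA9. Of the 36 genes tested, limma called 0, as it did 0% of all genes. At an unadjusted p below 0.05, 12 of the 36 were lower and 0 higher in J, against 2.35% and 6.14% of all genes. The tumors of the J group lay entirely below those of the control group in 8 of the 36, against 1.66% of all genes, and entirely above in 0, against 3.33%. Log2 differences below 0 were found in 31 of the 36, against 40.3% of all genes. The median log2 difference was -0.19 over the 36 genes and 0.04 over all genes tested. Of 18 glycolytic enzymes, lactate dehydrogenases and PFKFB regulators, 3 were among the 12, and of the 18 other genes 9 were. The difference between these groups of genes was not tested.

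SLC2A3 (GLUT3, chr12:8071826-8171603), a high-affinity glucose transporter, had 25.1, 19.7, 21.0 and 23.4 FPKM in J tumors, against 38.5, 33.5, 28.1 and 36.7 in control tumors. Every J tumor was below every control tumor. On the log2 scale the difference was -0.60 (standard error 0.13, unadjusted p = 0.000295, adjusted p = 0.208, limma). SLC2A1 (GLUT1), the more widely expressed transporter, differed by -0.11 (95% interval -0.35 to 0.12).

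DDIT4 (REDD1, chr10:74033678-74035794), a stress-induced inhibitor of mTOR complex 1, had 17.5, 15.7, 21.3 and 21.2 FPKM in J tumors, against 36.9, 34.9, 23.0 and 29.8 in control tumors. The groups did not overlap, and the tumors of control mouse 2 were the highest. The log2 difference was -0.69 (standard error 0.15, unadjusted p = 0.000336, adjusted p = 0.208, limma). NDRG1, a stress-response gene induced by hypoxia, had 39.8, 29.7, 34.0 and 43.3 FPKM in J tumors, against 69.2, 66.4, 44.2 and 52.2 in control tumors. The groups were separated by less than 1 FPKM, and the log2 difference was -0.64 (standard error 0.18, adjusted p = 0.294, limma).

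P4HA1 (chr10:74766975-74856732), the catalytic subunit of collagen prolyl 4-hydroxylase, had 64.0, 52.2, 51.5 and 53.6 FPKM in J tumors, against 79.4, 69.5, 68.4 and 64.3 in control tumors. J tumor 26L stood above the other J tumors and just below the lowest control tumor. This was a log2 difference of -0.35 (standard error 0.10, adjusted p = 0.316, limma). ADM (adrenomedullin, chr11:10326620-10328944), a secreted vasodilator peptide, had 2.40, 1.70, 2.01 and 1.48 FPKM in J tumors, against 7.01, 6.69, 2.46 and 3.04 in control tumors. The tumors of control mouse 2 were far above those of mouse 5, and tumor 5L lay just above the highest J tumor. On the log2 scale the difference was -1.04 (standard error 0.31, adjusted p = 0.340, limma).

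CA9 (carbonic anhydrase IX, chr9:35673925-35681156), a surface enzyme of pH control and a common marker of hypoxic tumor areas, had 4.70, 3.16, 2.54 and 3.31 FPKM in J tumors, against 9.78, 8.49, 4.65 and 5.77 in control tumors. The groups overlapped narrowly, by J tumor 26L and control tumor 5L. The log2 difference was -0.94 (standard error 0.33, adjusted p = 0.434, limma).

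Among glycolytic enzymes, PGK1 and HK2 were the lowest in J by p. PGK1 (chrX:77166236-77384792), which makes ATP in the second part of glycolysis, had 184, 186, 181 and 187 FPKM in J tumors, against 223, 249, 213 and 240.1 in control tumors. The J tumors were close to each other and all below control, with a log2 difference of -0.32 (standard error 0.10, adjusted p = 0.360, limma). HK2 (chr2:75061254-75120486), the inducible hexokinase of many tumors, had 9.75, 8.47, 7.75 and 9.31 FPKM in J tumors, against 13.1, 10.3, 10.2 and 11.8 in control tumors. The groups did not overlap, and the log2 difference was -0.34 (standard error 0.11, adjusted p = 0.395, limma). LDHA, PDK1, a kinase that shuts pyruvate dehydrogenase, the histone demethylase KDM3A and CA12 complete the 12. By contrast the log2 difference was -0.00 for TPI1 (95% interval -0.22 to 0.22), 0.02 for ALDOA (-0.24 to 0.27), 0.06 for PFKP (-0.16 to 0.28) and 0.06 for GAPDH (-0.20 to 0.32).

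The counts in J leaned on particular mice. Without control mouse 5, ADM (adjusted p = 0.0339) and DDIT4 (adjusted p = 0.0241) passed the limma threshold. The unadjusted count of 12 was 7 without control mouse 2 (3.52% of all genes), 7 without J mouse 29 (1.43% of all genes) and 20 on the TPM scale (8.77% of all genes). It was 8 with a common sum that left out short RNAs (1.48% of all genes). Summed macrophage markers, mostly CD68, were 31.0 to 34.0 FPKM in J tumors and 22.1 to 28.2 FPKM in control tumors. Summed endothelial markers overlapped, at 2.84 to 4.07 FPKM in J and 2.095 to 3.43 FPKM in control tumors. The part of these cells in the differences was not tested.

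**Figure D2:**
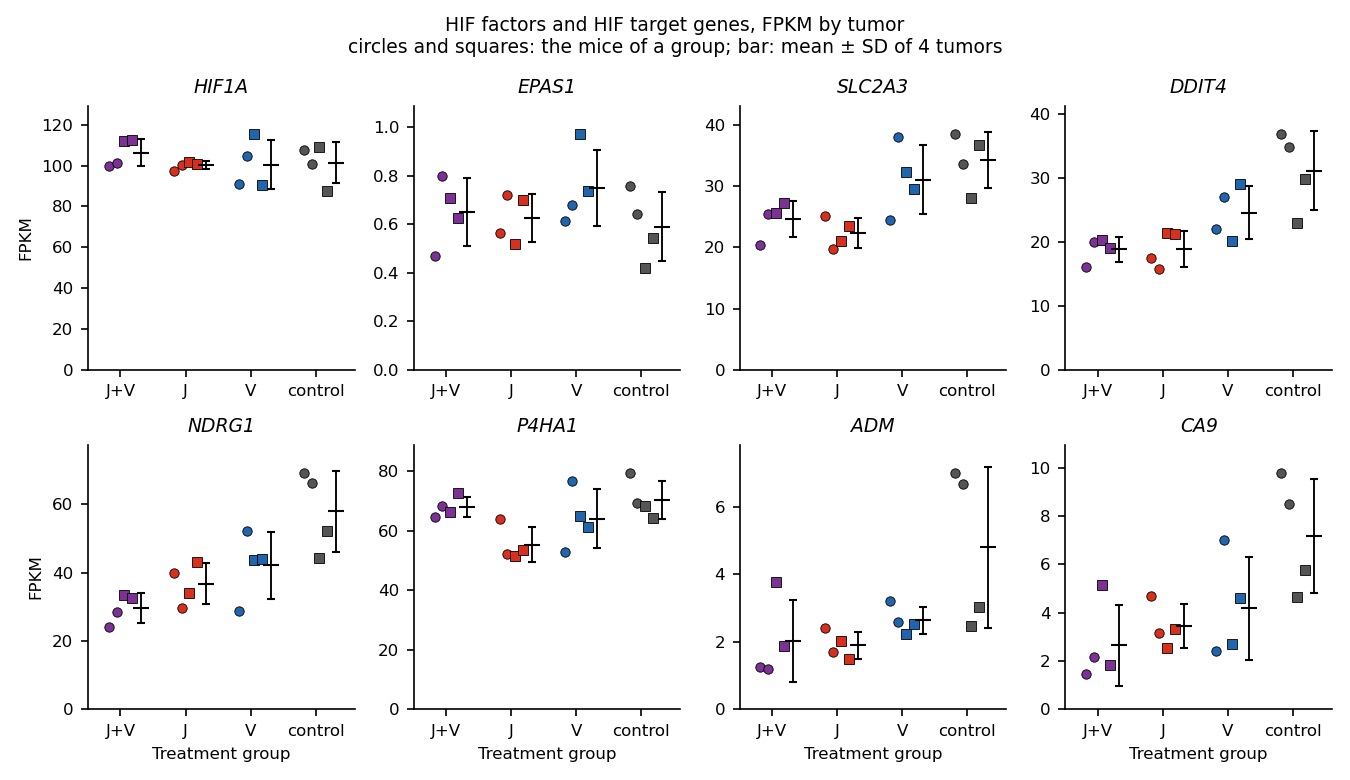
FPKM of HIF1A, EPAS1 and 6 HIF targets by tumor, with J+V, J, V and control from left to right, a circle or square for each mouse in the group, and the bar for mean ± SD of 4 tumors. SLC2A3, DDIT4, NDRG1 and P4HA1 are lower in every J tumor than in every control tumor, and the control tumors of ADM and CA9 are split by mouse.

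The letters around the starts of these genes were read to show where the HIF core stands. RefSeq promoters (GRCh38.p14) were given for 34 of the 38 genes, at 58 start sites. The core ACGTG or GCGTG, on either strand, stood in the 250 bases before 36 of these 58 starts (62.1%), against 43.2% of all 35116 starts in the table. At least 1 start held it in 29 of the 34 genes (85.3%), against 47.4% of all 27305 genes. Genes with more listed starts have more chances to hold it. The comparison took all genes of the promoter set, expressed in these tumors or not, and did not match base composition. The excess therefore cannot be read as a trait of HIF targets. Among the genes that fell in J+V tumors, as described below, 20 of 32 starts held it (62.5%), and among the others 16 of 26 (61.5%). The letters CACGTG, the E-box bound by MYC and MAX, count as overlapping cores on both strands, and stood at 13.8% of the starts of these genes and 6.34% of all starts. Matches of letters are a description, not binding sites. The 250 bases before the start of 6 genes follow, 5′ to 3′ along the gene, with each core in capitals as read on the gene's strand (CACGT and CACGC are the core on the other strand). CA9, DDIT4 and P4HA1 stand for HIF targets that were lower in J tumors without a call. PGK1, LDHA and ENO1 stand for enzymes that fell in J+V tumors. The sets are not exclusive, as CA9 and DDIT4 also fell in J+V tumors. PGK1 and LDHA were also lower in every J tumor than in every control tumor, without a call.
CA9, chr9:35673678-35673927, plus strand: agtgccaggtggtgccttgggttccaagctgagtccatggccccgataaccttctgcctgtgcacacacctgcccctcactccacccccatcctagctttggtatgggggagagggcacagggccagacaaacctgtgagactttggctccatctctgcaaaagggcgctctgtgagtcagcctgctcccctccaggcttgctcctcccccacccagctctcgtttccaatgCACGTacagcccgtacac
DDIT4, chr10:72273674-72273923, plus strand: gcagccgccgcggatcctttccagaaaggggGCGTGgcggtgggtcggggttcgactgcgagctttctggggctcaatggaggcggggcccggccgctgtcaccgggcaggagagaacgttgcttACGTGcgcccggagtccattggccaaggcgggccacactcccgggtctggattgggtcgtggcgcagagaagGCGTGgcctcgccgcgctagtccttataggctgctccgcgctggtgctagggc
P4HA1, chr10:73096867-73097116, minus strand: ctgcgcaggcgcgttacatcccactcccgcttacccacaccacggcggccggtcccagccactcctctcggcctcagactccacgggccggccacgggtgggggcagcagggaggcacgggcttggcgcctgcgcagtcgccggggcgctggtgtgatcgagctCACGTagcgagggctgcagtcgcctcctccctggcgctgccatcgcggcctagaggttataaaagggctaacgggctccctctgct
PGK1, chrX:78103998-78104247, plus strand: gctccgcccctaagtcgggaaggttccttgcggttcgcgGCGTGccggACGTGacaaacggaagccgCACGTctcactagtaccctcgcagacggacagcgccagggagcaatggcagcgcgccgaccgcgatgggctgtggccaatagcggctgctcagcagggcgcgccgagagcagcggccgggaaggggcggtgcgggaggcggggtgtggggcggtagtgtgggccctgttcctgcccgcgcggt
LDHA, first start, chr11:18394313-18394562, plus strand: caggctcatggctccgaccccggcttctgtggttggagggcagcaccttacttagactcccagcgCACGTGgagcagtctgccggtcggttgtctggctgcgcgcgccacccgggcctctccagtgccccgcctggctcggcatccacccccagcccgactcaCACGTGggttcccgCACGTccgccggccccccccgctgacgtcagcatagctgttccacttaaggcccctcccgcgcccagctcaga
ENO1, chr1:8878687-8878936, minus strand: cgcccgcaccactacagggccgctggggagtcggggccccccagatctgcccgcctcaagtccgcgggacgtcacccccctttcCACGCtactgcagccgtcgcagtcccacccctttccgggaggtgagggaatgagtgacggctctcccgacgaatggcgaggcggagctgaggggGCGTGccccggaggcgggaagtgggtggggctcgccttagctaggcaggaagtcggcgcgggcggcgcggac
CA9 held its 1 core 18 bases before the start and P4HA1 its 1 core 86 bases before it. DDIT4 held 3 and PGK1 3, while LDHA held 2 E-boxes and 1 further core. ENO1 held 2 cores of the GCGTG kind and none with ACGTG.

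With Vemurafenib alone, enzymes at both ends of glycolysis, the secreted factor VEGFA and several other HIF targets lay below control, again with no gene past the threshold. Of the 36 genes limma called 0, as it did 0% of all genes, and 18 were lower and 0 higher at an unadjusted p below 0.05, against 8.03% and 8.06% of all genes. V tumors lay entirely below control in 4 genes, against 1.99% of all genes, and entirely above in 0, against 1.87%. Differences below 0 were found in 35 of the 36, against 48.8% of all genes. The median log2 difference was -0.25 over the 36 genes and 0.01 over all genes. Of the 18 glycolytic enzymes and regulators 11 were among the 18 lower genes, and of the 18 others 7 were. The median log2 difference in V was -0.27 over the 18 enzymes and regulators and -0.24 over the 18 others. In J these medians were -0.13 and -0.31.

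PGK1 had 193, 179, 145 and 177 FPKM in V tumors, all below the control values given above, with a log2 difference of -0.42 (standard error 0.10, unadjusted p = 0.000907, adjusted p = 0.144, limma). ALDOC (chr17:26900133-26903966), the aldolase best known from brain, had 12.1, 15.1, 9.82 and 14.6 FPKM in V tumors, against 18.1, 25.03, 15.4 and 18.5 in control tumors. The groups were close but did not overlap, with a log2 difference of -0.56 (standard error 0.15, adjusted p = 0.150, limma). SLC2A1 (chr1:43391024-43424564) had 8.12, 9.24, 8.13 and 11.0 FPKM in V tumors, against 12.9, 14.6, 10.4 and 11.2 in control tumors. V tumor 19R lay among the control tumors, and the log2 difference was -0.41 (standard error 0.11, adjusted p = 0.154, limma). PFKP (chr10:3108525-3179910), the platelet form of phosphofructokinase, had 17.99, 15.4, 16.5 and 21.6 FPKM in V tumors, against 24.7, 25.5, 19.9 and 22.8 in control tumors. The groups overlapped by tumor 19R, and the log2 difference was -0.37 (standard error 0.10, adjusted p = 0.155, limma).

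VEGFA, the main growth factor of vessels, averaged 4.75 ± 0.55 FPKM in V tumors and 8.41 ± 3.08 in control tumors (SD, n = 4 each), and all V tumors lay below all control tumors. Its log2 difference was -0.71 (standard error 0.24, adjusted p = 0.190, limma). SLC2A3 and DDIT4, among the lowest in J by p, differed by -0.15 (95% interval -0.42 to 0.13) and -0.33 (-0.65 to -0.01) in V. CA9 averaged 4.18 ± 2.13 FPKM in V and 7.17 ± 2.37 in control tumors, and ADM 2.64 ± 0.41 and 4.80 ± 2.38. NDRG1 averaged 42.2 ± 9.85 and 58.0 ± 11.8 FPKM, and BNIP3 69.0 ± 13.8 and 108 ± 37.7. In each of these the groups overlapped. KDM3A was at the control level, with 20.4 ± 2.74 and 20.1 ± 2.51 FPKM. Without V tumor 19R, PFKP and SLC2A1 passed the limma threshold (adjusted p = 0.0423 each), and without control mouse 5, BNIP3 (adjusted p = 0.0322) and SLC2A1 (adjusted p = 0.0367) did. The unadjusted count of 18 was 9 without V tumor 19L (5.31% of all genes) and 11 without control mouse 2 (7.78% of all genes).

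With both drugs, glycolytic genes fell along nearly the whole pathway, from glucose transport to lactate dehydrogenase, together with a subset of HIF targets. ENO1, PFKP, PGK1 and TPI1 had the smallest p, and ENO1 averaged 382 ± 52.1 FPKM in J+V tumors and 764 ± 73.4 in control tumors (SD, n = 4 each), 49.9% lower. Of the 36 genes tested, 21 fell and 0 rose, against 20.5% and 16.6% of all genes. J+V tumors lay entirely below control in 18, against 16.4% of all genes, and entirely above in 0, against 12.9%. Log2 differences were below 0 in 33 of the 36, against 52.4% of all genes. The median log2 difference was -0.47 over the 36 genes and -0.03 over all genes, and on the TPM scale -0.68 and -0.22. With the thresholds the study used (more than 2-fold, with p under 0.01 and FDR under 0.1) 3 genes passed, against 3.83% of all genes. The count of 21 was 13 without J+V mouse 33, and without control mouse 2 it was 14, with 1 higher. Over all genes, the 4979 calls became 2843 without mouse 33. The call held in all 37 alternative fits for 11 genes: ENO1, PFKP, PGK1, TPI1, PGAM1, ALDOA, NDRG1, LDHA, HK1, ENO2 and DDIT4.

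**Figure D3:**
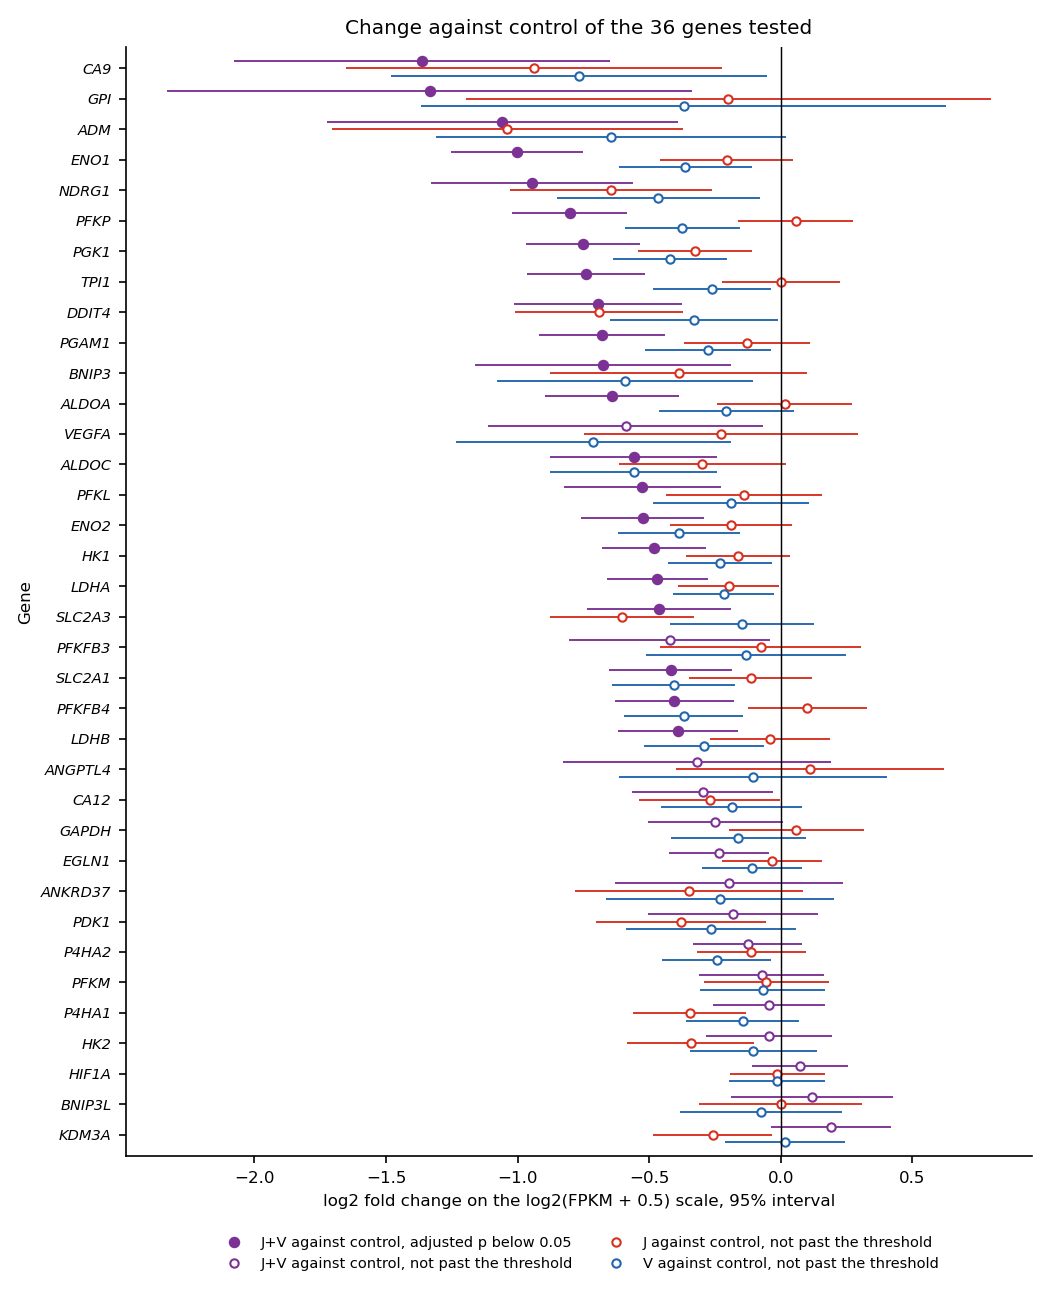
Log2 fold change against control of the 36 genes tested, with 95% intervals, ordered by the change in J+V, which is drawn above J and V for each gene. Filled points, all in J+V, passed an adjusted p below 0.05, and open points did not. CA9, GPI and ADM have the widest intervals, and ENO1, PFKP, PGK1 and TPI1 have narrow intervals far from 0 in J+V.

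Both glucose transporters fell. SLC2A1 had 8.02, 10.2, 8.93 and 8.95 FPKM in J+V tumors, all below the control values, with a log2 difference of -0.42 (standard error 0.11, adjusted p = 0.00850, limma). SLC2A3 had 20.4, 25.4, 25.5 and 27.2 FPKM in J+V tumors, also all below control, with a log2 difference of -0.46 (standard error 0.13, adjusted p = 0.0114, limma). Neither was called without control mouse 2, nor SLC2A3 without J+V mouse 33.

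Of the 9 enzymes between glucose and triose phosphate, 7 fell: HK1, GPI, PFKP, PFKL, ALDOA, ALDOC and TPI1. ALDOC was not called without mouse 2 or mouse 34, nor PFKL without mouse 33. PFKP, a phosphofructokinase at the committed step, had 11.8, 12.8, 15.0 and 12.8 FPKM in J+V tumors, against control values of 19.9 to 25.5. Its log2 difference was -0.80 (standard error 0.10, adjusted p = 8.52e-05, limma). TPI1 (chr12:6976283-6980112), which interconverts the triose phosphates, had 210.3, 159, 207 and 199 FPKM in J+V tumors, against 344, 333, 293 and 321 in control tumors. The gap between the groups exceeded the range within control tumors, and the log2 difference was -0.74 (standard error 0.11, adjusted p = 0.000170, limma).

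ALDOA, the main aldolase, averaged 100.3 ± 7.40 FPKM in J+V and 158 ± 25.2 in control tumors (SD, n = 4 each), with no overlap (adjusted p = 0.00105, limma). GPI, the isomerase of the second step, averaged 4.15 ± 2.12 and 11.9 ± 7.54 FPKM in J+V and control tumors. It ranged from 2.18 to 22.2 FPKM over the series, with overlap between groups, and its call (adjusted p = 0.0365, limma) was lost in 13 of the 37 alternative fits. Without control mouse 2 the log2 difference was -0.67 in place of -1.33. HK2 and PFKM were not called, with log2 differences of -0.04 (95% interval -0.29 to 0.20) and -0.07 (-0.31 to 0.17).

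Of the regulators that set fructose 2,6-bisphosphate, the activator of phosphofructokinase, PFKFB4 fell (log2 difference -0.40, adjusted p = 0.00833, limma) and PFKFB3 missed the threshold (-0.42, adjusted p = 0.0752). PFKFB4 was not called without J+V mouse 33 or without control mouse 5.

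Of the 5 enzymes between triose phosphate and pyruvate, 4 fell. ENO1 (alpha-enolase, chr1:8921059-8939249) had 349.8, 332, 448 and 399 FPKM in J+V tumors, against 721, 821, 682 and 830.4 in control tumors. The highest J+V tumor was far below the lowest control tumor, with a log2 difference of -1.002 (standard error 0.12, adjusted p = 4.89e-05, limma). PGK1 had 118, 124, 154 and 156 FPKM in J+V tumors, against 223, 249, 213 and 240.1 in control tumors. The tumors of mouse 33 were the lower pair, and the log2 difference was -0.75 (standard error 0.10, adjusted p = 0.000119, limma). PGAM1, the phosphoglycerate mutase of this step, averaged 53.0 ± 8.32 FPKM in J+V and 84.7 ± 9.47 in control tumors (SD, n = 4 each), and ENO2, the neuronal enolase, 8.80 ± 1.27 and 12.8 ± 1.05.

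GAPDH (chr12:6643678-6647540), an enzyme that the study also used as an internal standard for PCR, had 1338, 1482, 1506 and 1459 FPKM in J+V tumors, against 1635, 1802, 1507 and 1958 in control tumors. All J+V tumors were below all control tumors, tumor 34L only just below control tumor 5L. The log2 difference was -0.25 (standard error 0.12, adjusted p = 0.116, limma), and it was called on the TPM scale (-0.47) and after quantile normalization (-0.37). The annotation names 65 pseudogenes of GAPDH, 44 of BNIP3, 13 of PGAM1 and 6 of LDHA, with which reads of these genes could be shared. The same holds for ENO1 and TPI1 with 4 each, LDHB and SLC2A3 with 3 each, and PGK1 and ALDOA with 2 each. In all, pseudogenes are named for 16 of the 38 genes.

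At the end of the pathway LDHA and LDHB, the subunits of lactate dehydrogenase, fell, and PDK1 did not pass. LDHA had 319.7, 311, 388 and 364 FPKM in J+V tumors, against 504, 521, 450.4 and 435 in control tumors, with no overlap and a log2 difference of -0.47 (standard error 0.09, adjusted p = 0.00123, limma). LDHB averaged 501 ± 50.1 FPKM in J+V and 656 ± 42.0 in control tumors (SD, n = 4 each), a log2 difference of -0.39 (adjusted p = 0.0109, limma) that was not called without mouse 2, mouse 33 or control tumor 5L. PDK1 differed by -0.18 (95% interval -0.50 to 0.14).

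**Figure D4:**
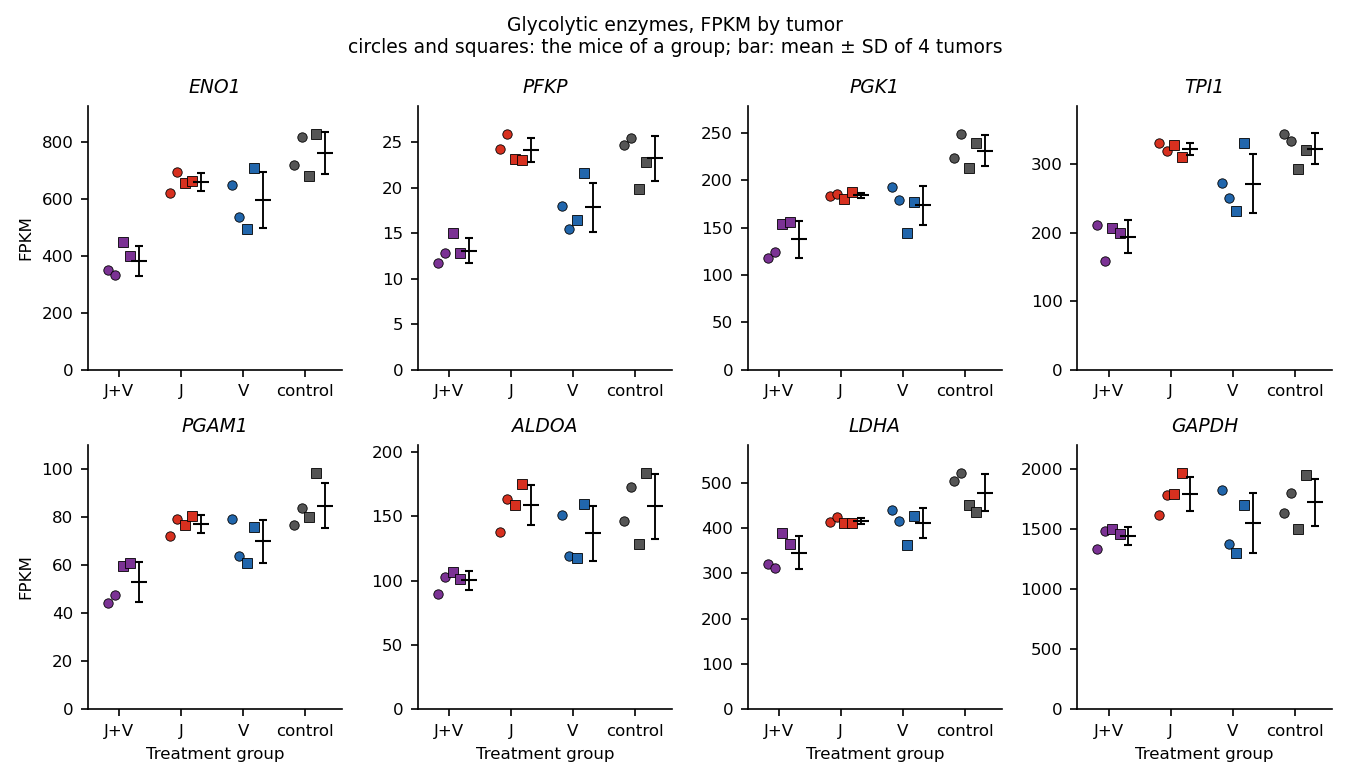
FPKM of 8 glycolytic enzymes by tumor, with J+V, J, V and control from left to right, a circle or square for each mouse in the group, and the bar for mean ± SD of 4 tumors. J+V tumors are the lowest for ENO1, PFKP, TPI1, PGAM1 and ALDOA with no overlap with any other group, while J tumors sit at the control level for PFKP, TPI1 and ALDOA.

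HIF targets outside glycolysis were split in J+V tumors. NDRG1 had 23.9, 28.5, 33.4 and 32.6 FPKM, all below the control values, with a log2 difference of -0.95 (standard error 0.18, adjusted p = 0.00116, limma). DDIT4 had 16.0, 19.96, 20.3 and 19.1 FPKM, all below control, with a log2 difference of -0.69 (standard error 0.15, adjusted p = 0.00256, limma). CA9 had 1.45, 2.16, 5.12 and 1.82 FPKM, and tumor 34L overlapped with control. Its log2 difference was -1.36 (standard error 0.33, adjusted p = 0.00569, limma), and it was not called without control mouse 2 or without J+V mouse 33.

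ADM had 1.25, 1.19, 3.77 and 1.89 FPKM in J+V tumors, again with tumor 34L among the control values, and a log2 difference of -1.06 (adjusted p = 0.0160, limma). BNIP3, a receptor for removal of mitochondria, averaged 65.5 ± 16.5 FPKM in J+V and 108 ± 37.7 in control tumors (SD, n = 4 each), with overlap (adjusted p = 0.0310, limma). Without control mouse 2 the log2 difference was -0.47 for ADM and -0.24 for BNIP3 (-0.68 with it), and neither was called without mouse 2, mouse 33 or any 1 of their tumors. When the tumors of a mouse were averaged, neither was called (adjusted p = 0.104 for ADM and 0.127 for BNIP3), and over all alternatives the call was lost in 8 of 36 fits for ADM and 12 of 37 for BNIP3. VEGFA had 4.26, 4.37, 9.85 and 3.88 FPKM in J+V tumors, of which 34L lay at the control level, and was not called (adjusted p = 0.0704).

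Other HIF targets gave no call. P4HA1 had 64.6, 68.4, 66.5 and 72.7 FPKM in J+V tumors, within the control range, with a log2 difference of -0.05 (95% interval -0.26 to 0.17). KDM3A (chr2:86667770-86719839) had 24.1, 26.2, 21.5 and 20.3 FPKM in J+V tumors, against 23.1, 19.0, 17.3 and 21.1 in control tumors, a log2 difference of 0.19 (-0.04 to 0.42). BNIP3L, a related mitophagy receptor, had 41.4, 41.2, 40.6 and 42.8 FPKM in J+V tumors, against 45.0, 48.5, 36.5 and 26.7 in control tumors, a difference of 0.12 (-0.19 to 0.43). CA12, ANGPTL4, P4HA2 and ANKRD37 had log2 differences of -0.32 to -0.13, with adjusted p of 0.0770 to 0.466.

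With Vemurafenib added to JQ1, glycolytic enzymes were lower than with JQ1 alone. In J+V against J, 11 of the 36 genes fell, against 18.4% of all genes, and 2 rose, against 8.67%. All 11 were among the 18 glycolytic enzymes and regulators: PFKP, TPI1, ENO1, ALDOA, PGAM1, PFKFB4, PGK1, HK1, LDHB, ENO2 and LDHA. The call was lost in 15 of 37 alternative fits for LDHA and for ENO2, in 11 for LDHB, 6 for HK1, 5 for PGK1 and 1 for PGAM1, and in 0 for the others. On the mean of each mouse's tumors LDHA had an adjusted p of 0.168. Of the 18 other genes 0 fell. The groups did not overlap in 14 genes lower in J+V (22.2% of all genes) and in 3 higher (12.9%). A log2 difference below 0 was found in 28 of the 36, against 56.7% of all genes, and 0 passed the study's thresholds, against 2.7%. PFKP averaged 13.1 ± 1.35 FPKM in J+V and 24.1 ± 1.33 in J tumors (SD, n = 4 each), with a log2 difference of -0.86 (standard error 0.10, adjusted p = 0.000148, limma). ENO1 averaged 382 ± 52.1 and 660.5 ± 30.4 FPKM in J+V and J tumors, with a log2 difference of -0.80 (standard error 0.12, adjusted p = 0.000505, limma).

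The genes that rose were KDM3A and P4HA1, both among the 12 with lower values in J. KDM3A had 24.1, 26.2, 21.5 and 20.3 FPKM in J+V tumors, against 16.7, 15.7, 15.9 and 18.3 in J tumors, with no overlap and a log2 difference of 0.45 (standard error 0.11, adjusted p = 0.00716, limma). It was not called without mouse 26 or mouse 33. P4HA1 was also higher in every J+V tumor than in every J tumor, with a log2 difference of 0.30 (standard error 0.10, adjusted p = 0.0372, limma), a call lost on the TPM scale (adjusted p = 0.236) and in 14 other fits. For DDIT4 and ADM, J+V and J tumors differed by -0.00 (95% interval -0.32 to 0.32) and -0.02 (-0.69 to 0.65). The count of 13 calls was 8 when the tumors of a mouse were averaged, 6 without mouse 26, 7 without mouse 29 and 5 without mouse 33. Over all genes, the 3628 calls became 2257, 1582, 1136 and 1423 in these fits.

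With JQ1 added to Vemurafenib, 6 of the 36 genes were lower than with Vemurafenib alone, against 8.31% of all genes, and 0 were higher, against 4.99%. They were ENO1, TPI1, PFKP, ALDOA, PGAM1 and PGK1, all glycolytic enzymes. J+V tumors lay entirely below V tumors in 7 genes, against 9.15% of all genes, and entirely above in 0, against 6.55%. The log2 difference was below 0 in 26 of the 36, against 54.9% of all genes, and 0 passed the study's thresholds, against 1.3%. ENO1 averaged 382 ± 52.1 FPKM in J+V and 598 ± 98.4 in V tumors (SD, n = 4 each), with a log2 difference of -0.64 (standard error 0.12, adjusted p = 0.00437, limma). TPI1 averaged 194 ± 23.9 and 271 ± 43.0 FPKM in J+V and V tumors, with a log2 difference of -0.48 (standard error 0.11, adjusted p = 0.00983, limma). This count was 12 on the TPM scale, 0 when the tumors of a mouse were averaged and 1 when only these 8 tumors were fitted. It was 0 without mouse 33, 2 without mouse 19 or tumor 19R, and 3 without mouse 16, mouse 29, tumor 33L or tumor 5L. Calls over all genes moved too, from 1786 to 2889 on the TPM scale, 234 from mouse means and 890 with only these tumors fitted. They numbered 330 without mouse 33, 415 without mouse 19 and 697 without tumor 19R. Without mouse 16, mouse 29, tumor 33L or tumor 5L they were 1469, 1145, 1094 and 683.

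Between the single drugs, 0 of the 36 genes passed in J against V, against 0.156% of all genes lower and 0.127% higher (0.283% in either direction). At an unadjusted p below 0.05, 5 were higher (7.92% of all genes) and 3 lower (3.92%) in J. PFKFB4 averaged 11.9 ± 1.116 FPKM in J and 8.46 ± 0.95 in V tumors, and PFKP 24.1 ± 1.33 and 17.9 ± 2.68 (SD, n = 4 each). Their log2 differences were 0.47 (adjusted p = 0.0795, limma) and 0.43 (adjusted p = 0.0932), and in both genes all J tumors were above all V tumors. SLC2A3 was lower in J, by a log2 difference of -0.46 (adjusted p = 0.160). Without V tumor 19R, PFKP passed (adjusted p = 0.0309), and without control mouse 2, PFKFB4 did (adjusted p = 0.0465).

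How far J+V departed from J and V added on the log2 scale was called for 0 of the 36 genes and for 0% of all genes. At an unadjusted p below 0.05, 4 were below the sum (9.50% of all genes) and 4 above it (3.11%). PFKP departed by -0.49 (standard error 0.15, unadjusted p = 0.00449, adjusted p = 0.192, limma), TPI1 by -0.48 (adjusted p = 0.213) and P4HA1 by 0.45 (adjusted p = 0.216). The others below the sum were ALDOA and ENO1, and those above it KDM3A, HK2 and PDK1. For PGK1 the departure was -0.01 (95% interval -0.31 to 0.30).

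Shares between enzymes of the same tumor do not depend on how tumors are scaled, and are given as a description. PFKP made up 30.7% ± 1.501 of the phosphofructokinase FPKM (PFKP, PFKL and PFKM) in J+V tumors, 43.0% ± 2.36 in J, 36.1% ± 3.22 in V and 40.7% ± 6.11 in control tumors (SD, n = 4 each). The highest J+V tumor (32.8%) was below the lowest control tumor (33.2%). ENO1 made up 20.9% ± 1.93 of the sum of ENO1 and GAPDH in J+V tumors, 27.0% ± 1.26 in J, 27.8% ± 1.32 in V and 30.7% ± 0.69 in control tumors. J+V tumors (18.3 to 22.9%) lay apart from the 3 other groups. HK2 made up 29.6% ± 2.27 of the sum of HK1 and HK2 in J+V tumors, 21.3% ± 2.09 in J, 25.4% ± 4.85 in V and 23.6% ± 2.50 in control tumors, and every J+V tumor was above every J and control tumor. PGK1 made up 8.69% ± 0.92 of the sum of PGK1 and GAPDH in J+V, 9.35% ± 0.62 in J, 10.1% ± 0.95 in V and 11.9% ± 0.65 in control tumors, and the J and J+V tumors lay below all control tumors. Other shares overlapped between J+V and control tumors. SLC2A3 made up 71.4 to 75.2% and 69.6 to 76.6% of SLC2A1 and SLC2A3. ALDOC made up 9.42 to 12.8% and 9.15 to 12.6% of ALDOA and ALDOC. LDHA made up 39.0 to 44.4% and 41.3 to 42.9% of LDHA and LDHB. The shares of ENO2 in ENO1 and ENO2 (2.02 to 2.46% and 1.57 to 1.86%) and of ENO1 in ENO1 and LDHA (51.7 to 53.6% and 58.8 to 65.6%) did not overlap.

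Genes of the same pathways that are not among the 38 were counted from lists of known members. In J+V against control, 14 of 35 further hypoxia-induced genes fell and 2 rose, 12 of 28 further genes of glycolysis and pyruvate use fell and 2 rose, 4 of 8 genes of the pentose phosphate pathway fell, and 0 of 3 genes of gluconeogenesis were called by limma or had an unadjusted p below 0.05, while of all genes 20.5% fell and 16.6% rose. PLAUR, the urokinase receptor, had the largest fall of the hypoxia list (log2 difference -1.82, adjusted p = 3.20e-05, limma), followed by the glycoprotein hormone STC1 (-1.03), while the nuclear receptor RORA (0.89) and the nuclear receptor coactivator PNRC1 (0.42) rose. In the glycolysis list the hexokinase HKDC1 (-0.84) and the mitochondrial phosphatase PGAM5 (-0.82) fell most, and PDK4 (0.93), a kinase that shuts pyruvate dehydrogenase, and PGAM2 (0.66), the muscle mutase, rose. PGAM5 is not an enzyme of glycolysis, although it is counted in the 12 of 28. Pyruvate kinase (PKM2 in the table) fell by 0.68 on the log2 scale (adjusted p = 0.00174), and TKT (-0.69), a transketolase of the pentose phosphate pathway, fell too. Of 12 regulators of HIF itself 3 fell (RBX1, -0.38, CUL2, -0.28, and TCEB1, -0.27), a share near the 20.5% of all genes. In J against control 0 genes of these lists were called, and 9 of the 35 further hypoxia-induced genes were lower and 0 higher at an unadjusted p below 0.05, against 2.35% and 6.14% of all genes.

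Markers of melanoma and of other cells were read to check the tissue. The host cells are mouse, while reads were mapped to human hg19. Values of host markers can come from A375 cells or from mouse reads that map to human genes. Which of these they came from was not tested. SOX10, MITF, MLANA, S100A1 and S100B were measured, while PMEL, TYR, TYRP1 and DCT stayed below 1 FPKM. The summed melanoma markers ranged from 115.5 to 204.8 FPKM in J+V, 76.6 to 116.6 in J, 101.8 to 119.3 in V and 78.9 to 130.5 in control tumors, and S100B (1.68) and MLANA (0.55) rose in J+V. Summed markers of endothelium were low, at 2.104 to 2.97 FPKM in J+V, 2.84 to 4.07 in J, 2.12 to 2.88 in V and 2.095 to 3.43 in control tumors, with PECAM1, CDH5 and VWF below 1 FPKM. ROBO4, the 1 endothelial marker tested, had 0.162, 0.135, 0.211 and 0.197 FPKM in J+V tumors, 1.11, 1.117, 1.123 and 1.095 in J tumors, 0.256, 0.264, 0.296 and 0.599 in V tumors, and 0.390, 0.745, 0.457 and 0.432 in control tumors. Its J tumors were above all others and its J+V tumors below all others. It reached 1 FPKM only in J tumors, so it was tested only because it was high there. Its differences that involve J follow from that filter and are a description only. Against control ROBO4 fell in J+V (-0.56) and differed by 0.69 in J (unadjusted p = 0.000128, adjusted p = 0.177, limma), it fell in J+V against J (-1.25), and it was higher in J against V (0.93, adjusted p = 0.0223). Summed fibroblast markers were 74.7 to 148.8 FPKM in J+V, 78.3 to 105.8 in J, 74.9 to 135.8 in V and 48.9 to 176.2 in control tumors, and 3 of the 9 tested (LUM, DCN and PDGFRB) rose in J+V, against 16.6% of all genes. In J against control LUM differed by 1.47, DCN by 1.28 and PDGFRB by 0.60, all uncalled (adjusted p of 0.177 to 0.453, limma). Summed macrophage markers were 25.8 to 29.7 FPKM in J+V, 31.0 to 34.0 in J, 22.9 to 31.1 in V and 22.1 to 28.2 in control tumors, mostly from CD68 (0.41 in J against control, adjusted p = 0.209), with C1QA, C1QB, MRC1 and TYROBP at 0. Of the blood markers HBA1 and HBA2 were at 0, and HBB, the 1 tested, had 0.467, 0.420, 1.461 and 1.322 FPKM in J tumors, against 2.39, 1.477, 2.62 and 4.64 in control tumors. Every J tumor was below every control tumor (-1.21, unadjusted p = 0.0150, adjusted p = 0.446, limma). The skeletal muscle markers MYH1 (0.52) and MYH2 (0.67), the 2 tested, rose in J+V against control, and differed by 0.35 and 0.40 in J, uncalled. The keratinocyte marker KRT10 fell in J+V against J (-0.39) and differed by 0.50 in J against control (adjusted p = 0.177). The part of these cells in the differences above was not tested.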

How the data were processed

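RNA of 16 A375 xenografts, 4 in each of J+V, J, V and control, was depleted of ribosomal RNA and sequenced. Per the labels the authors used bcl2fastq, TopHat and Cufflinks with hg19, and deposited FPKM values for 23260 symbols. For the gene annotation and for any removal of mouse reads the sources used here say nothing. The study ran its own tests with DESeq on counts, not used here. The depth behind each FPKM is unknown: of 1113 low values, 22.6% lay within 0.1 of a whole multiple of a single step, so reads could not be recovered.

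FPKM plus 0.5 was log2-transformed, genes that reached 1 FPKM in 4 or more tumors were kept (13426), and 7 contrasts were fitted with limma-trend 3.58.1 in R 4.3.3, with all 4 groups in the fit, the mouse as a random block (correlation -0.0674), 12 residual degrees of freedom and Benjamini-Hochberg adjustment over all genes. The p-values count 16 tumors, although tumors of a mouse are not independent animals and the block correlation was negative, and only the alternative on the mean of each mouse's tumors rests on 8 mice. Ratios of FPKM within a tumor, means and SDs were computed in Python 3.11.15 (pandas 2.3.3, numpy 2.4.6). The scripts were tested on simulated data. Gene positions are GRCh37 (GENCODE) and promoters RefSeq GRCh38.p14. Alternatives changed the pseudocount, filter, scaling, block, moderation, threshold and groups fitted, or left out each tumor or mouse.

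The genes and lists were chosen with earlier results of these data known. Tumor values are given for HIF1A, EPAS1 and GAPDH, and for those with the smallest p: 8 in J, 4 in V, 4 lower and the only 3 above 0 in J+V against control, and 3 in the departure. Genes of other pathway lists are named at most 2 per list and direction, apart from TCEB1 and PKM2. Cell markers were named without this limit. Other genes given by tumor or as means (among them VEGFA, BNIP3, GPI, PGAM1, ALDOA, LDHA, TCEB1 and PKM2) were chosen after their values were seen. A result for 1 further gene is not reported here.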

Additional observations from a re-analysis of the deposited data

Results flagged for a closer look

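Within 152 sets of 4 tumors (38 genes in 4 groups), 7 held a tumor whose gap to the nearest of the others was too large a share of the range of its group by Dixon's limit (95%), which chance passes in about 1 of 20 sets. In J+V, tumor 34L was the highest for VEGFA (9.85 FPKM) and ENO2 (10.7 FPKM). In J, tumor 26L was the highest for P4HA1 (64.0 FPKM) and tumor 26R for LDHA (425 FPKM). In V, tumor 19R was the highest for EGLN3 (0.269 FPKM). In control, tumor 5R was the highest for PFKFB3 (18.9 FPKM) and PFKFB4 (13.0 FPKM).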

How the results depend on the processing

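The depth is unknown and each group rests on 2 mice, so single mice moved the counts. Where a value moved, the cause was not tested, and calls over all genes moved too in the fits for which they are given above. In J against control the count of 0 ranged from 0 to 2 over the fits without 1 tumor or mouse and was 12 at an unadjusted p below 0.05, and the median log2 difference was -0.33 on the TPM scale. In V against control it ranged from 0 to 2 and was 18 unadjusted. In J+V against control the count of 21 ranged from 13 to 26 and was 3 at the study's thresholds, while the median was -0.68 on the TPM scale and ranged from -0.55 to -0.35 over the fits without 1 tumor or mouse. In J+V against J the count of 13 ranged from 5 to 17, was 8 from mouse means and 0 at the study's thresholds, and the median was -0.21 after quantile normalization and ranged from -0.41 to -0.14. In J+V against V the count of 6 ranged from 0 to 8, was 12 on the TPM scale, 0 from mouse means, 1 with only these groups fitted, 0 at the study's thresholds and 12 unadjusted, and the median was -0.29 on the TPM scale and ranged from -0.27 to -0.046. Of all genes called, 67.9% were lower in J+V than in J as deposited, 84.5% on the TPM scale and 48.6% after quantile normalization. In J+V against V these shares were 62.5%, 91.9% and 54.3%. In J against V the count of 0 ranged from 0 to 1 and was 8 unadjusted, and the median turned to -0.019 on the TPM scale. The departure from the sum had 8 genes unadjusted. HIF1A in J+V against control turned to -0.14 on the TPM scale and ranged from -0.0040 (without mouse 34) to 0.15 over the fits without 1 tumor or mouse. No paired analysis was possible because each mouse received 1 treatment, and the groups share no mouse number.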

Other observations

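Tumors of the same group differed in hypoxia targets. The median of the 36 tested genes, relative to the control mean on the log2 scale, was -0.63, -0.50, -0.32 and -0.45 in J+V tumors 33L, 33R, 34L and 34R, against 0.09, 0.04, -0.15 and -0.01 in control tumors 2L, 2R, 5L and 5R. CA9, ADM and NDRG1 were higher in both tumors of control mouse 2 than in both of control mouse 5, and tumor 34L had the highest CA9, ADM, BNIP3 and VEGFA of the J+V tumors. PDK4, which was among the genes that rose in J+V, had 58.5, 53.4, 26.9 and 54.0 FPKM in J+V tumors, against 30.4, 24.01, 20.7 and 21.8 in control tumors, and its lowest J+V value was also in tumor 34L.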
